A study of Homo sapiens with 4 samples.

Results

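The genes described here encode proteins that tie the plasma membrane to the cytoskeleton through a FERM domain, and they were chosen by name: EPB41 and its relatives EPB41L1, EPB41L2, EPB41L3, EPB41L4A and EPB41L5, the ezrin family genes EZR, RDX and MSN, and NF2. These 10 genes were set against the 18417 genes of the arrays that had a probe set of their own. The set was drawn up around EPB41L2, whose large difference between the lines was already known. The values of its members are therefore given as a description, and nothing is read from tests of single members. Each member had 1 probe set, so no choice between probe sets was needed. For 9 of 10 members that probe set was annotated to the member alone. The probe set of EZR was annotated to EZR and to the receptor kinase gene ROS1, and its signal is given below as that of a shared probe set. Of its 9 annotated accessions 2 were RefSeq transcripts, both of EZR and 0 of ROS1.

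RNA was compared between MV4-11R and MV4-11 on Affymetrix arrays, with 2 arrays of each line. MV4-11R is a drug-resistant human line, labelled with low EZH2, raised from MV4-11 by 3 months of growth in increasing amounts of PKC412 (midostaurin), a tyrosine kinase inhibitor. Its parent MV4-11 is an acute myeloid leukaemia line with an MLL fusion and an activated FLT3 receptor kinase, labelled as drug-sensitive with high EZH2. The labels do not say whether MV4-11R is 1 clone, whether PKC412 was present at harvest, or whether the 2 arrays of a line came from separate cultures, so the errors below cover array-to-array spread alone and may be purely technical.

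Several proteins of the EPB41 family hold spectrin and actin to the tails of membrane proteins. That arrangement was first worked out in the red cell, where the EPB41 product is protein 4.1R. Ezrin, radixin and moesin join actin filaments directly to the tails of surface receptors such as CD44 and the ICAMs. They open into an active form on binding a membrane phospholipid and on phosphorylation of a threonine near the carboxyl end. In leukocytes they support microvilli, uropods and the placing of adhesion receptors. Merlin, the NF2 product, shares the FERM domain and is a tumour suppressor that feeds into the Hippo kinase pathway.

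The EPB41L2 promoter is shown because the results turn on that gene, and the RDX promoter because RDX had the next largest difference among members with a probe set of their own. Both sequences run from 250 bases before to 50 bases after the most upstream start in RefSeq, build GRCh38.p14. Capitals mark GGGCGG or its reverse complement, the letters of a GC box. The EPB41L2 window is chr6:131063196-131063495 on the minus strand, and the RDX window is chr11:110296565-110296864 on the minus strand.
EPB41L2: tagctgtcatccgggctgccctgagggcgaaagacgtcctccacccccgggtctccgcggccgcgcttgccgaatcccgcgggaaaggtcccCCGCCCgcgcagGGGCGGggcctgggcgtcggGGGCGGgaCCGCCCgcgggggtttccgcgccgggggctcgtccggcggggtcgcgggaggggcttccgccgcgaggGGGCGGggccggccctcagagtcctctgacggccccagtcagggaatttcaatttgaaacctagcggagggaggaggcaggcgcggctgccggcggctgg
RDX: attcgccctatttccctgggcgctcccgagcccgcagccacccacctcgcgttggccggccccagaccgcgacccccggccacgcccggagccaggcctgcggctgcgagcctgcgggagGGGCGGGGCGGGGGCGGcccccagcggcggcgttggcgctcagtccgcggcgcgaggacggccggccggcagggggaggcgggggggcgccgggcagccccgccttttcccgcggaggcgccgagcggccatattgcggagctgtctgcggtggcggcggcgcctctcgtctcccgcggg
The EPB41L2 window held 40 CpG dinucleotides and 5 matches to GGGCGG, counting both strands, and the RDX window held 46 CpG dinucleotides and 3 matches. Over 35116 RefSeq promoter windows of 300 bases the median was 14 CpG dinucleotides, and 45% of windows held GGGCGG on either strand. The most upstream windows of EPB41L5, EZR, EPB41L4A and EPB41L3 held 38, 36, 35 and 30 CpG dinucleotides. Those of NF2, EPB41, MSN and EPB41L1 held 27, 19, 7 and 2. Matches to GGGCGG in these windows ran from 0 for EPB41L1 and EPB41L3 to 5 for EPB41L5 and EZR. High counts were thus not particular to EPB41L2 and RDX. EPB41L2 has 4 starts in RefSeq, and the windows of its other 3 starts held 2, 3 and 4 CpG dinucleotides and no GGGCGG. The EPB41L2 probe set gave 1 value for the gene, so the starts were not measured apart.

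Among the EPB41 relatives, EPB41L2, which encodes the widely expressed protein 4.1G, stood far apart between the lines. Its log2 signal was 4.89 and 5.97 on the MV4-11R arrays, against 9.30 and 9.51 on the MV4-11 arrays. Both MV4-11R arrays were far below both MV4-11 arrays, and the MV4-11R arrays lay further from each other than those of any other member, with a gap of 1.07 against 0.20 between the MV4-11 arrays. The difference, MV4-11R minus MV4-11, was -3.98 log2 units (SE 0.33, n = 2 per line), or 15.8-fold lower in MV4-11R. Among the 18417 genes its difference ranked 7 from the lowest. The 95th percentile of 341 olfactory receptor genes, silent in most blood cells, was 6.26 and serves as a rough mark of background, called the background guide here. EPB41L2 lay under that guide on both MV4-11R arrays, so the size of its fold is not exact. With MV4-11R replicate 2 left out its difference was -4.51, and with MV4-11R replicate 1 left out it was -3.44.

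**Figure D1:**
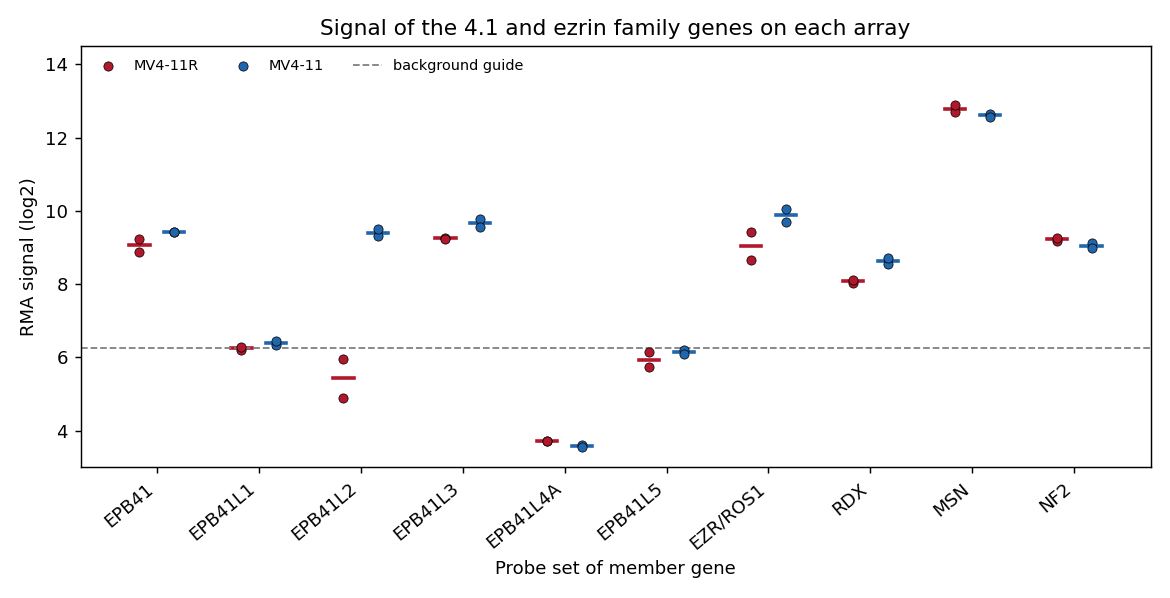
Log2 signal of each member's probe set (horizontal axis) on the 2 MV4-11R arrays (red) and the 2 MV4-11 arrays (blue), with short lines at the means and a dashed line at the background guide of 6.26. EPB41L2 reads 4.89 and 5.97 in MV4-11R against 9.30 and 9.51 in MV4-11, a wider gap between the lines than for any other member.

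EPB41 itself, which encodes protein 4.1R, read 8.88 and 9.24 in MV4-11R, against 9.43 and 9.43 in MV4-11. Its MV4-11R arrays were both lower, with a difference of -0.37 (SE 0.15), or -0.19 with MV4-11R replicate 1 left out. EPB41L3, which encodes protein 4.1B, a growth suppressor in several epithelial and brain tumours, read 9.25 and 9.24 in MV4-11R, against 9.78 and 9.55 in MV4-11. The lines did not overlap, and the difference of -0.42 (SE 0.12) was about as large as that of EPB41 and far smaller than that of EPB41L2.

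The remaining EPB41 relatives were dim. EPB41L1, which encodes the neuronal protein 4.1N, read 6.20 and 6.28 in MV4-11R, against 6.32 and 6.45 in MV4-11, all near the background guide. EPB41L5, known from epithelial polarity and cell migration, read 6.14 and 5.73 in MV4-11R, against 6.19 and 6.10 in MV4-11, and was the only member with a probe set of its own whose lines overlapped. EPB41L4A, a less studied relative, read 3.71 and 3.71 in MV4-11R, against 3.61 and 3.54 in MV4-11. EPB41L4A and EPB41L5 were under the guide on all 4 arrays, so a difference between the lines may not be visible for these genes. None of these dim relatives was higher in MV4-11R by as much as EPB41L2 was lower, the differences being -0.15 for EPB41L1 (SE 0.11), -0.21 for EPB41L5 (SE 0.16) and 0.13 for EPB41L4A (SE 0.11). Leaving out MV4-11R replicate 1 or replicate 2 put EPB41L5 at -0.42 or -0.0024, and EPB41L1 was at -0.08 without MV4-11 replicate 2.

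Within the ezrin family, moesin, the main member in leukocytes, was bright in both lines. MSN read 12.70 and 12.88 in MV4-11R, against 12.64 and 12.56 in MV4-11. Its MV4-11R arrays were slightly higher, by 0.19 (SE 0.12, 95% interval -0.10 to 0.48), or by 0.10 with MV4-11R replicate 2 left out. RDX, which encodes radixin, went the other way and read 8.04 and 8.11 in MV4-11R, against 8.54 and 8.71 in MV4-11. Both MV4-11R arrays of RDX were lower, the difference was -0.55 (SE 0.12), or 1.47-fold lower in MV4-11R, and it exceeded the gap between arrays of either line. The probe set shared by EZR and ROS1 read 8.67 and 9.41 in MV4-11R, against 10.06 and 9.69 in MV4-11. The lines did not overlap on the shared probe set, but its arrays were widely spaced in both lines, and its difference of -0.83 (SE 0.29, from a fit of all 33297 probe sets) was -1.21 with MV4-11R replicate 2 left out and -0.46 with MV4-11R replicate 1 left out.

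NF2, which encodes merlin, read 9.18 and 9.27 in MV4-11R, against 9.11 and 8.98 in MV4-11. The MV4-11R arrays were higher by 0.18 (SE 0.11, 95% interval -0.10 to 0.45), or by 0.11 with MV4-11 replicate 2 left out. The interval spans 0 and does not show that the lines were alike.

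Over the 9 members with a probe set of their own, 6 had a lower mean in MV4-11R and 3 a higher one, and the median difference was -0.21, beside 0.01 over all genes. In limma's fit of all genes, 2 of the 9 had an adjusted p under 0.05, EPB41L2 and RDX, both lower in MV4-11R, and 15.1% of all genes did so in either direction (7.13% lower and 7.92% higher in MV4-11R). Nothing is read from that count, since the members were chosen with this contrast known. Without any 1 of the 4 arrays the count was 1, EPB41L2 alone. The arrays of the lines did not overlap for 8 of the 9 members, and likewise for 55.6% of all genes.

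**Figure D2:**
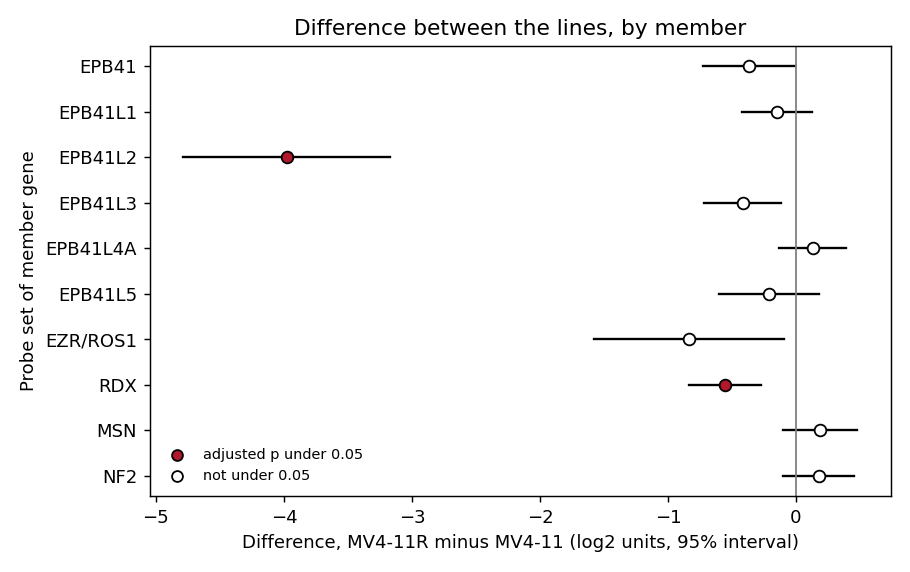
Difference of the line means, MV4-11R minus MV4-11, in log2 units for each member (points) with limma's 95% interval (lines); red points had an adjusted p under 0.05 over all genes, and the EZR/ROS1 interval comes from the fit of all probe sets. EPB41L2 at -3.98 lies apart from the other members, which run from -0.83 to 0.19.

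Each member was set beside its chromosomal neighbours, taken as the 30 nearest genes above the median level (28 for EPB41L3). EPB41L2 lies on chromosome 6, and its 30 neighbours had a median difference of 0.01, from -0.64 for MAN1A1 to 0.70. Of these 30 neighbours 0 were as low as EPB41L2, which was nearly fixed in advance because EPB41L2 was chosen for its large difference. Of the 30 neighbours 15 were below 0. The nearest of the 30 on either side, L3MBTL3 and MED23, had differences of -0.54 and 0.12. EZR also lies on chromosome 6, and its neighbours had a median of 0.10. Neighbours of RDX on chromosome 11 had a median of 0.37, and 0 of 30 were as low as RDX. The medians beside EPB41 on chromosome 1, EPB41L1 on chromosome 20, EPB41L3 on chromosome 18, EPB41L4A on chromosome 5, EPB41L5 on chromosome 2, MSN on chromosome X and NF2 on chromosome 22 ran from -0.07 to 0.20. With the median of the neighbours taken off each gene, EPB41L2 was at -3.99, RDX at -0.92 and EPB41L3 at -0.52. These 3 of the 9 members had a limma adjusted p under 0.05, as did 2780 of all 18417 genes in that fit. Nothing is read from these member calls either, since the members were chosen with this contrast known. The fit took the neighbour median as exact, so the error of that median was not counted. On that scale EPB41L1 was at -0.34 and NF2 at 0.11.

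**Figure D3:**
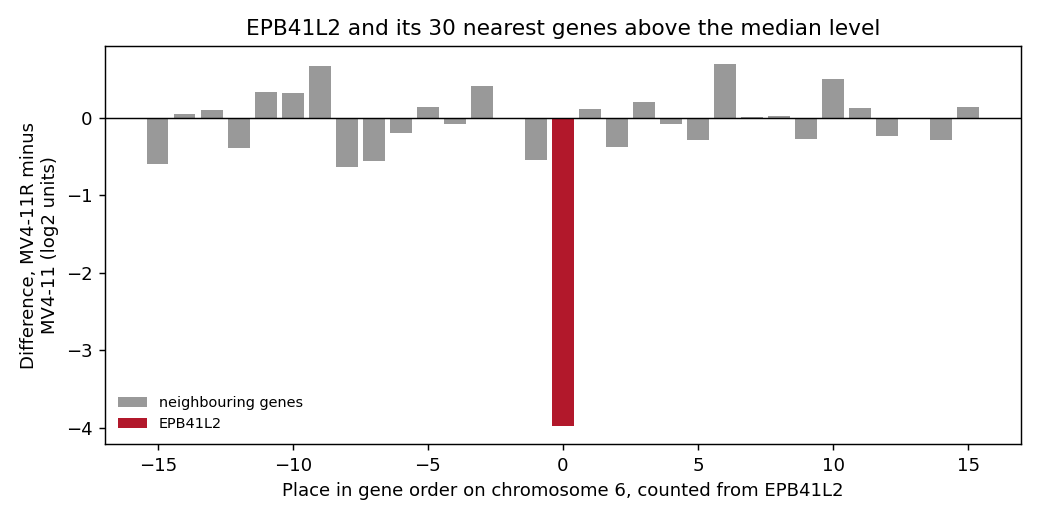
Difference of the line means, MV4-11R minus MV4-11, in log2 units (vertical axis) for EPB41L2 (red) and its 30 nearest genes above the median level (grey), by place in gene order. EPB41L2 stands at -3.98, and its neighbours lie between -0.64 and 0.70.

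The genes whose pattern over the 4 arrays was most like that of EPB41L2, by the Euclidean distance between profiles centred on each gene's mean, were SLAIN1 on chromosome 13 (distance 0.40 log2 units), ST8SIA6 on chromosome 10 (0.61), FGL2 on chromosome 7 (0.61), and the Y-linked genes UTY (0.63) and DDX3Y (0.65). SLAIN1 had a difference of -3.73, or -2.66 with the median of its chromosomal neighbours taken off. Both MV4-11R arrays of SLAIN1, ST8SIA6, UTY and DDX3Y, and replicate 1 of FGL2, were under the background guide, so these sizes are not exact. All 5 genes were, like EPB41L2, lower on MV4-11R replicate 1 than on replicate 2, an order that their choice by profile favoured. On chromosome Y, the 4 genes above the median level had a median difference of -2.46. With 4 arrays, likeness mostly reflects a similar size of difference between the lines.

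Genes related to the members, by a shared FERM domain, as partners or by pathway, were taken from 5 lists. They are described by their counts and without a test of a list as a whole. They were tested with limma across all genes, where 15.1% passed at an adjusted p under 0.05, and "rose" and "fell" mean passing genes. Among 42 measured genes of other FERM domain proteins there were 5 that rose, 4 that fell and 33 that did not pass, with a median difference of -0.03 beside 0.01 over all genes. PTK2, the focal adhesion kinase, read 7.89 and 8.18 in MV4-11R, against 6.14 and 6.49 in MV4-11, and rose 3.30-fold (adjusted p = 0.00300 by limma). JAK3, the kinase of cytokine receptors that share the IL2RG chain, read 7.73 and 7.53 in MV4-11R, against 6.02 and 6.22 in MV4-11, and rose 2.84-fold (limma adjusted p = 0.00224). Both MV4-11 arrays of JAK3 and 1 of PTK2 were under the background guide, so these folds are not exact. MYLIP, a ubiquitin ligase for lipoprotein receptors, fell to 9.83 and 10.15 in MV4-11R, against 10.94 and 10.95 in MV4-11 (1.94-fold, limma adjusted p = 0.0101), a difference of -0.95 that became -0.60 with the median of its chromosomal neighbours taken off (adjusted p = 0.0397). MYO7B, a myosin of intestinal microvilli, fell 1.73-fold (limma adjusted p = 0.0209), but did not pass without MV4-11R replicate 1 (adjusted p = 0.0716) or MV4-11 replicate 2 (0.0710). Without MV4-11 replicate 2 the list had 4 passing genes in place of 9.

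Of 24 genes measured for the spectrin skeleton and membrane partners of the EPB41 proteins, 1 rose, 5 fell and 18 did not pass, and the median difference was -0.07. The adducin gene ADD3, whose product caps actin filaments and recruits spectrin to them, read 7.40 and 8.33 in MV4-11R, against 9.28 and 9.52 in MV4-11. It fell 2.90-fold (limma adjusted p = 0.0216), with its MV4-11R arrays widely spaced, and did not pass without MV4-11 replicate 2 (adjusted p = 0.0556). TMOD2, a tropomodulin that caps the slow-growing end of actin filaments, fell to 6.25 and 6.74 in MV4-11R, against 7.46 and 7.63 in MV4-11 (2.08-fold, limma adjusted p = 0.0158). The beta spectrin gene SPTBN1 rose 1.68-fold, with 8.07 and 7.80 in MV4-11R, against 7.30 and 7.06 in MV4-11 (limma adjusted p = 0.0229). The SPTBN1 call was lost without MV4-11R replicate 1 (adjusted p = 0.0752) or MV4-11 replicate 2 (0.0834). Without MV4-11 replicate 2 the list had 2 passing genes in place of 6.

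Surface proteins and scaffolds that bind ezrin, radixin or moesin went both ways. Of 15 measured, 4 rose, 2 fell and 9 did not pass, with a median difference of 0.05. The adhesion receptors of the ICAM family divided by gene. ICAM1 averaged 9.88 in MV4-11R and 8.62 in MV4-11, with no overlap of arrays, and rose 2.41-fold (limma adjusted p = 0.00617). ICAM3 rose 2.14-fold, with 10.42 and 10.54 in MV4-11R, against 9.09 and 9.67 in MV4-11 (limma adjusted p = 0.0183). ICAM2 fell to 7.99 and 8.37 in MV4-11R, against 9.29 and 9.68 in MV4-11 (2.47-fold, limma adjusted p = 0.00966). The hyaluronan receptor CD44 read 11.30 and 11.56 in MV4-11R, against 12.30 and 12.13 in MV4-11, and fell 1.72-fold (limma adjusted p = 0.0164). The CD44 call was lost without MV4-11R replicate 1 (adjusted p = 0.0537) or MV4-11 replicate 1 (0.0636). Without MV4-11 replicate 1 the list had 3 passing genes in place of 6.

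Among kinases and other regulators of the ezrin family, 2 of 18 rose, 4 fell and 12 did not pass, with a median difference of -0.09. CDC42BPB, a kinase under the control of CDC42, rose 1.93-fold, with 7.53 and 7.96 in MV4-11R, against 6.78 and 6.81 in MV4-11 (limma adjusted p = 0.0158). STK24 (MST3), a Ste20-like kinase, read 9.49 and 9.35 in MV4-11R, against 10.73 and 10.68 in MV4-11, and fell 2.44-fold (limma adjusted p = 0.00226). The neighbours of STK24 on chromosome 13 differed as well: after subtraction of their median its difference was -0.22 in place of -1.28 (limma adjusted p = 0.242). MAP4K4 fell 1.59-fold (limma adjusted p = 0.0246). The MAP4K4 call was lost with any of MV4-11R replicate 1 (adjusted p = 0.0750), MV4-11R replicate 2 (0.0562) or MV4-11 replicate 1 (0.100) left out. In place of 6 passing genes the list had 2 with MV4-11R replicate 1 left out, 3 with MV4-11R replicate 2 left out and 2 with MV4-11 replicate 1 left out, and it had 4 with the medians of neighbours taken off.

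In the list for merlin and the Hippo pathway, 27 genes were measured, of which 2 rose, 4 fell and 21 did not pass. The median difference was -0.02. WWC1 (KIBRA), a partner of merlin that promotes Hippo kinase activity, read 6.41 and 6.11 in MV4-11R, against 7.67 and 7.48 in MV4-11, and fell 2.50-fold (limma adjusted p = 0.00439). Its relative WWC2 read 7.51 and 7.32 in MV4-11R, against 6.54 and 6.13 in MV4-11, and rose 2.11-fold (limma adjusted p = 0.0119), opposite to WWC1. AMOT, which encodes the junction protein angiomotin, fell to 6.21 and 6.11 in MV4-11R, against 7.21 and 7.43 in MV4-11 (2.23-fold, limma adjusted p = 0.00415). TEAD3, a transcription factor at the end of the pathway, rose 1.77-fold, with 9.59 and 9.43 in MV4-11R, against 8.59 and 8.79 in MV4-11 (limma adjusted p = 0.0122). WWC1, WWC2, AMOT and, of the spectrin skeleton genes, TMOD2 each lay at or under the background guide on at least 1 array of their dimmer line, so their folds are not exact.

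**Figure D4:**
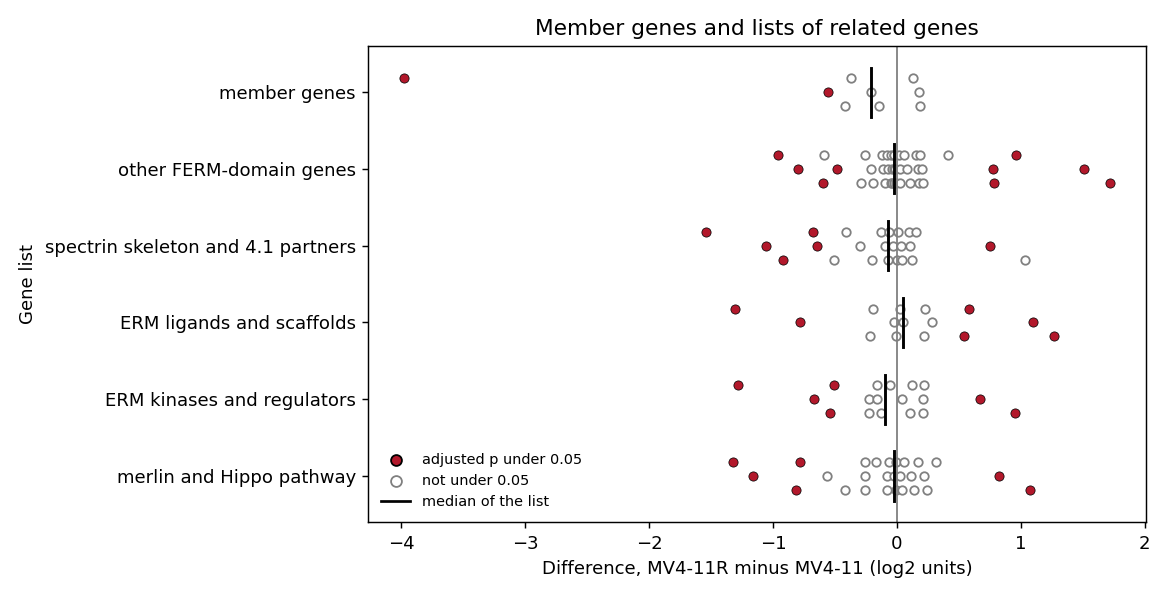
Difference of the line means, MV4-11R minus MV4-11, in log2 units (horizontal axis) for the 9 members with a probe set of their own and for the 5 lists of related genes; points are genes, red where the adjusted p was under 0.05, and black bars are medians. The list medians lie between -0.09 and 0.05, and EPB41L2 at -3.98 is the lowest point.

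For the samples as a whole, array medians lay between 6.75 and 6.78, and the correlation across genes between arrays of 1 line was 0.993 for MV4-11R and 0.994 for MV4-11; these are values over genes, which are not independent replicates. EZH2, labelled low in MV4-11R, read 9.90 and 9.29 in MV4-11R, against 9.75 and 9.74 in MV4-11. Its MV4-11R arrays thus lay on either side of MV4-11 (difference -0.14, limma adjusted p = 0.734, and 0.16 with MV4-11R replicate 2 left out). The arrays measured RNA alone, so these values do not bear on the level of EZH2 protein. All 8 measured myeloid markers read above the background guide in both lines, with a mean from 10.35 to 10.39 over the MV4-11R arrays and from 10.47 to 10.60 over the MV4-11 arrays. In that list 2 of 8 passed, FLT3 (-0.93, limma adjusted p = 0.00526) and LYZ (-0.69, adjusted p = 0.0192), both lower in MV4-11R. The 7 measured erythroid markers averaged 6.73 to 6.91 in MV4-11R and 6.64 to 6.71 in MV4-11. In each line 4 of 7 were above the guide on both arrays, and HBB and AHSP were under it on all arrays. In the erythroid list 1 of 7 passed, TFR2 (0.56, limma adjusted p = 0.0346). The lymphoid list averaged 6.65 to 6.80 in MV4-11R and 6.43 to 6.45 in MV4-11. Of its 7 markers 3 were above the guide on both arrays of each line, and CD3D, CD3E, CD2 and MS4A1 were under it on all arrays. Among lymphoid markers 2 of 7 passed, NKG7 (0.94) and PAX5 (0.80). The epithelial and fibroblast list averaged 6.24 to 6.34 in MV4-11R and 6.36 to 6.39 in MV4-11. Of its 8 markers 5 were above the guide on both arrays of each line, and 1 passed, KRT18 (-0.58, limma adjusted p = 0.0283). The part of these markers in the members' differences was not tested, and fewer cells with a transcript cannot be told apart from less of it per cell.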

How the data were processed

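RNA was measured on 4 arrays, 2 of MV4-11R and 2 of MV4-11. The deposited table holds log2 signal for 33297 probe sets, made by the authors with RMA (Affymetrix Expression Console) as the submitters' processing notes state; versions and genome build are not given in the sources used here, and the log2 scale was read from the values (2.39 to 14.31). Array number limits the precision.

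The platform annotation gave 19460 probe sets 1 gene and 1754 several genes, and did not list 12083. Symbols were updated by Entrez ID from RefSeq (GRCh38.p14), where 31 had no match, and the brightest probe set per gene was kept (18417 genes, no filter on level). Each gene was tested with limma 3.58.1 in R 4.3.3 (lmFit, eBayes, 2-sided, Benjamini-Hochberg over all genes), on 2 residual degrees of freedom, or 6.06 counting the prior, and the fit was tested on simulated data. SE is limma's. Levels of different probe sets were compared only with the background guide, a rough mark. Alternatives were another scaling, filter, probe set rule, variance trend, replicate block, regional shift and each array left out. The members and lists were chosen with earlier results of these data known. The genes named are all members, EZH2, the 2 largest passing rises and the 2 largest passing falls of each list, marker genes, neighbours and the 5 genes most like EPB41L2. Marker genes and neighbours named one by one were chosen after their values were seen. Of the listed genes, those without a probe set of their own were not analysed here, and 1 gene that the rule names is not reported here.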

Additional observations from a re-analysis of the deposited data

How the results depend on the processing

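The level filter, the mean of probe sets, the variance trend and the replicate block cannot change the EPB41L2 difference of -3.98. It was -4.01 with the arrays centred to the same median and -3.96 with quantile normalization applied again. With the regional shift subtracted it was -3.99, and it ranged from -4.51 to -3.44 with 1 array left out. EPB41L2 and RDX were the 2 members with an adjusted p under 0.05 under both rescalings, the level filter, the mean of probe sets, the variance trend and the replicate block. EPB41L3 joined them with the regional shift subtracted, where 2780 genes passed in all and the error of the shift was not counted. Nothing is read from these member calls, since the members were chosen with this contrast known. Leaving out 1 array gave 1 member in each case (lowest 1, highest 1). Over all genes the count of 2772 ranged from 1588 to 2479 with 1 array left out, and was 1505 in a fit of every probe set by itself, an alternative chosen after seeing the data. With 1 array left out the counts ranged from 4 to 7 for other FERM domain genes, 2 to 7 for the spectrin list, 3 to 5 for ligands and scaffolds, 2 to 4 for kinases and regulators and 5 to 6 for the merlin and Hippo list. These fits have fewer arrays, and the array left alone in its line is assumed to vary like the other line. With 1 array left out the EZH2 difference ranged from -0.45 to 0.16, positive only without MV4-11R replicate 2. Of the other values for single named genes, 260 kept their direction and side of the threshold and 14 lost their call. Of the values for members other than EPB41L2, 85 moved by less than the spread between arrays and 2 by more. Many of these 85 were fixed in advance, because leaving out 1 array cannot move a difference beyond that spread. The level filter, the mean of probe sets, the variance trend and the replicate block also leave a member's difference unchanged.

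The replicate numbers are shared by the lines but the labels do not say what they mark. Deviations of same-numbered arrays from the line means correlated at r = 0.26 across 18417 genes, which with 2 pairs does not establish a pairing. With the replicate block 3642 genes passed and 2 members did. EPB41L4A was removed by the level filter, so that alternative gives no value for it. Both MV4-11R arrays of EPB41L2 and every array of EPB41L4A and EPB41L5 lay under the background guide, which limits what can be said of their size.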
